A study of Mus musculus with 12 samples.

Results

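The LPS response in high salt medium was read from 6 of the 12 arrays of the series, the 3 arrays titled HS+LPS and the 3 arrays titled HS, which were chosen by those titles. All 12 arrays carry total RNA of RAW264.7, an established mouse macrophage line, kept for 24 h in 1 of 4 conditions. HS cells had 40 mM NaCl added to the medium and no lipopolysaccharide, and HS+LPS cells had the same 40 mM NaCl with 10 ng/ml LPS, so that the groups differ in LPS with the added salt held constant. NS and NS+LPS are the matching groups without added NaCl, and are used here only as the comparison without salt; the series title calls the salt treatment high salt, and the labels do not spell out the letters NS. RAW264.7 is 1 transformed line and not a primary macrophage, and the labels do not say that replicates were separate cultures, so a p-value reflects no more than the spread among these samples, possibly a technical one. Each array is a 1-colour (Cy3) Agilent mouse gene expression array, and a level is given throughout as log2 of the background-subtracted probe signal relative to the 75th percentile of its array: 0 is as bright as that percentile, and 1 unit is a 2-fold step. Levels of 2 different probes cannot be set against each other, so each gene is compared only with itself.

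LPS, the outer membrane glycolipid of Gram-negative bacteria, is bound by CD14 and MD-2 and signals through the receptor TLR4. One arm, through the adaptors TIRAP and MyD88, activates NF-kB and AP-1 and with them cytokine, chemokine and prostaglandin genes; the other, through TRAM and TRIF, activates IRF3 and the gene of interferon beta, which acts back on the cell through factors such as STAT2 and IRF9 to switch on antiviral genes. Macrophages given LPS also make nitric oxide, shift towards glycolysis and slow their division. In medium made hypertonic with salt, cells accumulate organic osmolytes, chiefly under the transcription factor NFAT5.

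All HS arrays lay on 1 slide and all HS+LPS arrays on another, scanned on different days, so slide, scan day and LPS cannot be told apart in any difference given below; HS shared its slide with NS and with NS+LPS replicates 1 and 2. HS arrays correlated with each other across genes at 0.9961 to 0.9968 and HS+LPS arrays at 0.9961 to 0.9963. The 75th percentile of signal was 613 to 656 on the HS arrays and 411 to 438 on the HS+LPS arrays. Relative to the 7 spike-in controls that were well above background on every array, RNA of fixed amount added by the kit, that percentile stood at -3.10 log2 units in HS (SD 0.10, n = 3) and at -3.76 in HS+LPS (SD 0.052, n = 3), against -3.03 in NS and -3.06 in NS+LPS. Scaling the arrays to these spots in place of the 75th percentile would shift every HS+LPS minus HS difference by -0.66; all values below are relative to the 75th percentile, and where a group of genes changes direction under the spike-in scaling it is said beside it. What lies behind the lower percentile of HS+LPS against the spike-ins was not tested, and that group had a slide and scan day of its own. Cell number and RNA per cell are not read out by these arrays. All 9 macrophage markers checked (among them Csf1r, Cd68, Lyz2, Itgam and Adgre1) were well above background in both groups. Of 42 markers of T, B, natural killer, mast, epithelial, endothelial, erythroid cells, neutrophils and fibroblasts, 26 were above background on none of the 6 arrays, and the summed linear level of the macrophage markers was 933 to 1030 in HS and 1160 to 1210 in HS+LPS. Among the other lists the T cell one summed to 5.71 to 5.92 in HS and 14.9 to 15.4 in HS+LPS. Of its 6 markers, Cd2, Cd3d and Cd3g were above background on none of the 6 arrays. The other 3, among them Lck, which rose, were well above background in both groups, 2 called higher and 1 lower (-0.48 to 1.95). Of 2 neutrophil markers tested, 1 was called higher (3.01) and 1 lower (-0.37). Over these 9 lists 14 markers were tested, 4 called higher and 4 lower. The part of such markers in the results below was not tested.

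**Figure D1:**
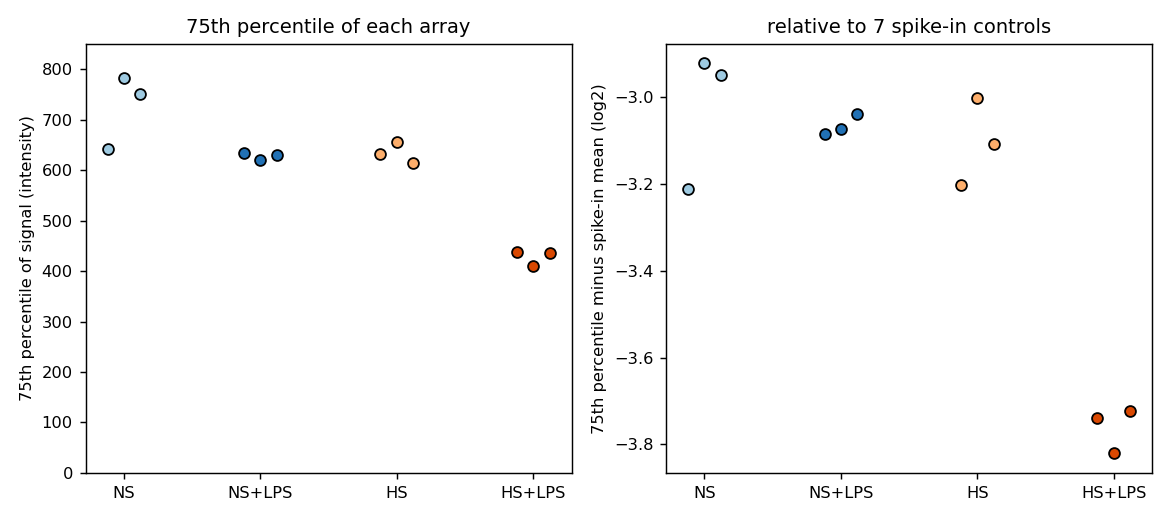
Left, the 75th percentile of signal (intensity) of each of the 12 arrays by group; right, that percentile relative to the mean of 7 spike-in controls (log2), 1 point an array. The 3 HS+LPS arrays, at 411 to 438, sit below the 9 others in both panels.

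Across the 13845 genes with a probe well above background (brighter than the local background by the scanner software's test) on every array of 1 group or more, 10006 (72.3%) differed between HS+LPS and HS at an adjusted p under 0.05 (limma over all 12 arrays, Benjamini-Hochberg over all genes), 4219 higher (30.5%) and 5787 lower (41.8%). Under the spike-in scaling the same test called 1254 higher and 10833 lower, and after cyclic loess normalization 5337 higher and 4470 lower. Since most genes passed the threshold, a size was used beside it: 1133 genes (8.18%) were called and at least 2-fold higher, and 951 (6.87%) called and at least 2-fold lower. The median difference over all genes was -0.11. For 10373 genes (74.9%) the arrays of the groups did not overlap. These counts describe the 6 arrays, with slide and scan day changing along with LPS. The shares over all genes, 30.5% higher and 41.8% lower, are the background for every list count below.

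Among the genes well above background on all 6 arrays, the inducible nitric oxide synthase gene Nos2 had the largest rise, matched within the error by Cstdc4. Its level was -2.74, -3.01 and -2.78 on the HS arrays and 5.30, 4.93 and 5.13 on the HS+LPS arrays, a difference of 7.96 (SE 0.13, adjusted p = 8.59e-12), 250-fold. The arrays did not overlap, which the choice of these genes required and which held for 74.9% of all genes tested. Ptgs2, the inducible cyclooxygenase that makes prostaglandin precursors, went from -3.32, -3.24 and -3.04 to 4.17, 4.04 and 4.23, a difference of 7.35 (SE 0.08). Irf7, the transcription factor that amplifies type I interferon, went from -1.08, -0.90 and -0.79 to 5.84, 5.98 and 5.87, a difference of 6.82 (SE 0.099). Also among the 12 largest rises were Zbp1, a sensor of nucleic acids that can start necroptosis (7.72), Ifi202b (7.42), Oasl2 (6.52) and Ifit3 (6.48). Siglec1, a sialic acid receptor of macrophages, rose by 6.59, the monocyte chemoattractant Ccl2 by 6.54 and Rgs16, a brake on G-protein signalling, by 6.89. Gstt1, a glutathione transferase, rose by 7.26 and Cstdc4, of the stefin family of cysteine protease inhibitors, by 7.96. Members of the stefin and Ifi200 families are near copies of each other, so the probes of Cstdc4 and Ifi202b may also bind their relatives.

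For a further 118 genes that were called higher the HS level was not well above background while all 3 HS+LPS arrays were. For these only an approximate lower limit of the fold can be given. It is the mean of the HS+LPS arrays over the higher, on each HS array, of the dimmest signal well above background and the probe's own. The limit is not strict, since a probe not well above background can exceed that dimmest signal. Cxcl2 did so on HS replicate 2 (-4.09 against -4.48). Cxcl2, a neutrophil chemoattractant, was at least 918-fold higher, with measured levels of -5.13, -4.09 and -5.15 in HS and 5.30, 5.11 and 5.37 in HS+LPS. Csf3, the granulocyte colony-stimulating factor, was at least 477-fold higher, from -6.58, -6.29 and -6.27 to 4.18, 4.20 and 4.18. Ifnb1, interferon beta itself, was at least 34.2-fold higher, from -6.56, -6.29 and -6.26 to 0.34, 0.41 and 0.40. The others among the 10 largest limits were Urah (at least 220-fold), a urate-pathway hydrolase; Ifi209 (163-fold), of the Ifi200 family; Fabp4 (74.9-fold), a fatty acid carrier; Cfb (72.6-fold), complement factor B; Gstt4 (63.6-fold); Pdpn (50.5-fold), the membrane mucin podoplanin; and Gm5797 (36-fold). In mm9 coordinates of the array design, the Nos2 probe lies on chromosome 11, 78773567 to 78773626, the Cxcl2 probe on chromosome 5, 91334534 to 91334593 and the Csf3 probe on chromosome 11, 98564614 to 98564673; an mm9 annotation was not used here, so exon or UTR is not given.

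**Figure D2:**
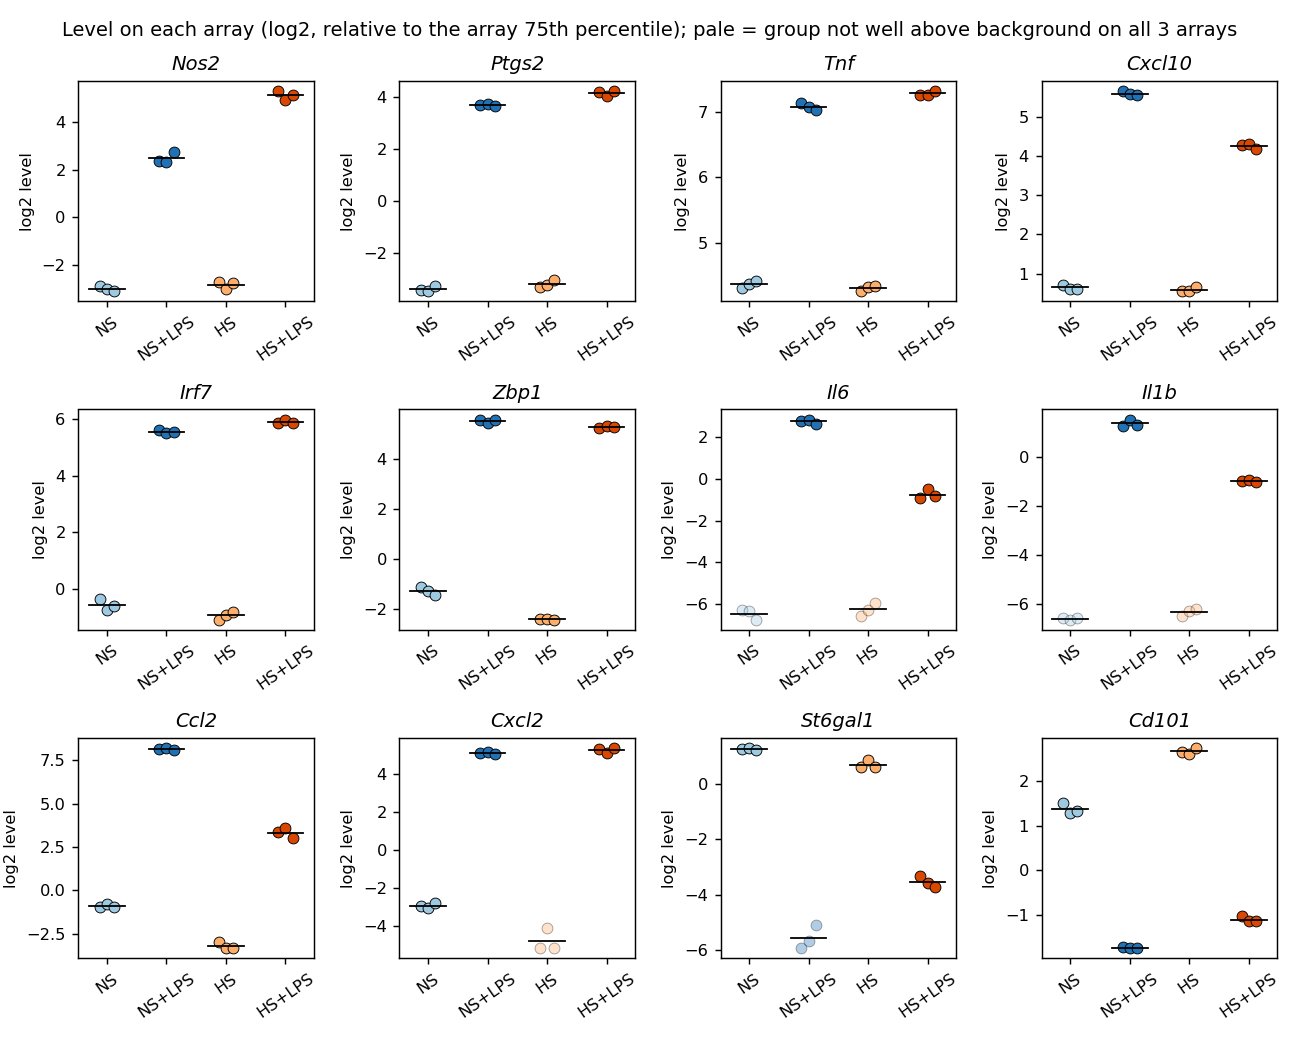
Level of 12 genes on each array (log2 relative to the array's 75th percentile), 3 points a group with a bar at the mean; pale points mark a group not well above background on all 3 arrays. In HS+LPS, Nos2 sits above its NS+LPS points and Il6, Il1b, Ccl2 and Cxcl10 sit below theirs, while St6gal1 and Cd101 are low in both LPS groups.

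The falls were smaller than the rises. St6gal1, the sialyltransferase that adds alpha-2,6-linked sialic acid to glycoproteins, had the largest among genes above background on all 6 arrays: its level was 0.59, 0.86 and 0.62 in HS and -3.31, -3.56 and -3.71 in HS+LPS, a difference of -4.22 (SE 0.18, adjusted p = 1.25e-08). Cd101, an immunoglobulin-family surface protein of myeloid and T cells, went from 2.65, 2.60 and 2.74 to -1.04, -1.14 and -1.15, a difference of -3.77 (SE 0.061). For both genes every HS+LPS array lay below every HS array, as the choice of these genes required. In either direction 74.9% of all genes had no overlap. Cytip, a cytohesin partner in leukocyte adhesion, fell by 3.48 and Kmo, the kynurenine 3-monooxygenase of tryptophan breakdown, fell by 3.03. Asb10 fell by 3.70, Card14, a CARD-family signalling scaffold, fell by 2.97, Treml1 fell by 2.92, Gm4146 fell by 2.88, Usp2, a deubiquitinating enzyme, fell by 2.84 and Gpr176 fell by 2.67. Klhl30 fell by 3.19 with a wide SE of 0.60, from 3.24, 3.07 and 3.85 to 0.27, -0.15 and 0.47. For 248 genes called lower, no HS+LPS array was well above background. Their limits were formed in the same way with the groups exchanged, and that of Tnfrsf25, 8.67-fold, equals its fitted fold. The largest such limit was that of Cbfa2t3, a transcriptional corepressor of blood cells, at least 23.1-fold lower (0.17, 0.21 and 0.29 in HS, -4.68, -4.74 and -4.09 in HS+LPS), ahead of Guca2b (at least 9.62-fold), the death receptor Tnfrsf25 (8.67-fold), the chemokine receptor Ccr6 (5.61-fold), the serotonin receptor Htr1b (5.25-fold), Tnfrsf17 (5.18-fold), 1700001K23Rik (5.04-fold), haptoglobin, Hp (4.86-fold), 1700060J05Rik (4.49-fold) and the long noncoding RNA Morrbid (4.25-fold).

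To show what lies upstream of the strongest inductions, the 250 bases before the annotated start are printed for the 2 members with the largest called rise, among those with an entry in the RefSeq promoter table (GRCm38.p6), of the cytokine, chemokine, antiviral and antimicrobial lists. Capitals mark a match, on either strand, to GGGNNNNNCC (a loose NF-kB site), GAAANNGAAA (an interferon-stimulated response element, ISRE), TGANTCA (AP-1) or TGGAAA (the core read by NFAT factors, NFAT5 included); overlapping matches run together. Csf3, Ccl2, Ccl5, Ccl4, Zbp1, Mx1 and Nos2 are named only.
Il6 (chr5:30012864-30013113, plus strand): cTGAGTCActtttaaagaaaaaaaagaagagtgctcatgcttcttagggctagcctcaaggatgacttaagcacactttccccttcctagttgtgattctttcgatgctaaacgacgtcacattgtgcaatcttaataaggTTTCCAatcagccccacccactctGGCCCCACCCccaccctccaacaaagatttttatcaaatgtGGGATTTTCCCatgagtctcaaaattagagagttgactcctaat
Il1b (chr2:129371140-129371389, minus strand): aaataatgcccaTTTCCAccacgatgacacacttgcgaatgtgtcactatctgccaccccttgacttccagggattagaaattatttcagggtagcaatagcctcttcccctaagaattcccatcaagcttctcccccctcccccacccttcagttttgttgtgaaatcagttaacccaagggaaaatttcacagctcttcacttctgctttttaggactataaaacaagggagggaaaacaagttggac
Cxcl2 (chr5:90903649-90903898, plus strand): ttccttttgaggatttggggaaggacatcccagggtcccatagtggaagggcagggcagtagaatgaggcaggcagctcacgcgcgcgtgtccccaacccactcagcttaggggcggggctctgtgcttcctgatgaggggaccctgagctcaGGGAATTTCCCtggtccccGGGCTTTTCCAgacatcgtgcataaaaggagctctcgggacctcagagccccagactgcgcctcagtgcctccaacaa
Cxcl10 (chr5:92348890-92349139, minus strand): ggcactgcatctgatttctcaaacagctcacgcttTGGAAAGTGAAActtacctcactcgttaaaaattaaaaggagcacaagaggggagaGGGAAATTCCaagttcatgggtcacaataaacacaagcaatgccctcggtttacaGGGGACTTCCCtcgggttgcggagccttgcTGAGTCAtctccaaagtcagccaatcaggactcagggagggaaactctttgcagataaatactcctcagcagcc
Oasl2 (chr5:114896684-114896933, plus strand): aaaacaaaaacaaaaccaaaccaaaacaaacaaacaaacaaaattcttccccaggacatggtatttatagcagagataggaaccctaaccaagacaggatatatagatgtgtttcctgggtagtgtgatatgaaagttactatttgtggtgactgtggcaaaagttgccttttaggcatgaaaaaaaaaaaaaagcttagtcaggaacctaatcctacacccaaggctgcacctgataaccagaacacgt
Ifit3 (chr19:34583279-34583528, plus strand): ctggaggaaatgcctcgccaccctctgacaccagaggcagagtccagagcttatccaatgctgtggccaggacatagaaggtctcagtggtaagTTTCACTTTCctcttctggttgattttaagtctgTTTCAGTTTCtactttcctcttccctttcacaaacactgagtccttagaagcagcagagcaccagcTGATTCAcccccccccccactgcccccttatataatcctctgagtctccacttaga
Acod1 (chr14:103046762-103047011, plus strand): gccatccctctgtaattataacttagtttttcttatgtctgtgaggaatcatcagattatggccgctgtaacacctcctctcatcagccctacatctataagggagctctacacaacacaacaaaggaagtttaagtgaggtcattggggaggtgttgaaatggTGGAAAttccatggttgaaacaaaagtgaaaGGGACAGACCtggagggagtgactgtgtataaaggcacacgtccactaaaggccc
Lcn2 (chr2:32387740-32387989, minus strand): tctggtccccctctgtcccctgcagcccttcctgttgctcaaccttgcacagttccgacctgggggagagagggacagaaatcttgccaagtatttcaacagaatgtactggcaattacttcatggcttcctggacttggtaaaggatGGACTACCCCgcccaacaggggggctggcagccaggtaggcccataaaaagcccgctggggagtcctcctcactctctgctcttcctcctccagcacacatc

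Cxcl2 and Cxcl10 hold 3 NF-kB matches each in this window and Il6 also 3, some of them overlapping, and Ifit3 holds 2 ISRE matches. The Oasl2 window holds none of the 4 motifs and that of Il1b only a TGGAAA. Counting a gene once if any of its listed starts has a match, 48.7% of all 27025 genes in the table hold the NF-kB letters, 3.46% the ISRE, 7.82% the AP-1 and 20.9% the TGGAAA letters. Among the 10430 tested genes that have an entry, the ISRE share is 3.32%; among the 843 of the 1133 genes called and at least 2-fold higher that have one, it is 8.9%, and among 668 of the 951 called and at least 2-fold lower, 3.29%. Of the antiviral list, 30 of 42 members have an entry, and 10 (33.3%) hold the ISRE letters. The NF-kB share is 63.2% among the genes at least 2-fold higher and 64.0% among all tested genes with an entry. For AP-1 these shares are 8.66% and 5.59%, and for TGGAAA 24.2% and 17.9%. Among the genes at least 2-fold lower they are 5.54% for AP-1 and 16.9% for TGGAAA. A match is a run of letters and not a bound site.

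The genes of LPS sensing moved by small amounts in both directions. Of 23 tested members of the TLR4 sensing and adaptor list, 13 were called higher and 6 lower, with a median of 0.17, which is -0.48 under the spike-in scaling. The largest rises lay in the interferon arm, its kinase Ikbke (1.58, SE 0.089), its adaptor TRIF, the gene Ticam1 (1.21), and its kinase Tbk1 (0.98). The co-receptor Cd14 rose by 0.84, from 7.27, 7.34 and 7.42 to 8.19, 8.22 and 8.13. Under the spike-in scaling Cd14 (0.18) and Tbk1 (0.32) were not called. On the falling side were Irak1, the kinase next to MyD88 (-1.39, SE 0.046), and Tab1, a partner of TAK1 (-1.0). Among 21 receptors of other microbial patterns, 11 were called higher, 1 of them above background in neither group, and 6 lower (median 0.90, but 0.29 when members below background are not left out), led by the cytosolic RNA sensors Ifih1 (4.29) and Ddx58 (4.11), the C-type lectins Clec4n (3.03) and Clec4e (1.78) and the peptidoglycan sensors Nod1 (2.06) and Nod2 (1.56). Tlr2, the lipoprotein receptor, fell by 1.03, from 5.14, 5.24 and 5.03 to 4.04, 4.23 and 4.06.

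Of 22 tested NF-kB genes 15 were called higher and 4 lower (median 0.35, -0.30 under the spike-in scaling). Nfkbiz, the nuclear IkB protein that drives secondary response genes, rose by 2.31 (SE 0.079), Traf1 by 1.95, the kinase Map3k8 by 1.18 and Bcl3 by 1.11, whereas Relb differed by -0.13 (adjusted p = 0.091) and was not called, though it was called lower after normexp background correction (-0.17), quantile normalization (-0.17), with the deposited table (-0.17) and with averaged probes (-0.34). The brakes on signalling and mRNA stability moved further: of 18 tested, 14 were called higher, 13 of them at least 2-fold, and 3 lower (median 1.38). Cish, a suppressor of cytokine signalling not measurable in HS, was at least 13.1-fold higher. Socs3 rose by 2.71, from 1.90, 1.96 and 1.99 to 4.68, 4.62 and 4.67, and Socs1 by 2.70. The dual-specificity phosphatases that switch off MAP kinases were higher, with Dusp2 at 1.90, Dusp6 at 1.48, Dusp1 at 1.44, Dusp4 at 1.38 and Dusp16 at 1.23; Dusp5 (3.89) and Dusp8 (2.15) were well above background on only 1 HS array. Zfp36l2, an mRNA-decay factor, fell by 0.81. Of 21 AP-1, EGR and immediate early factors, 18 were called higher and 1 lower (median 1.24), among them Ier3 (3.25), Fosl1 (2.73), Egr1 (2.60), Maff (2.34) and Egr2 (2.29), while Klf4 fell by 0.78. Fos and Jun, the classic AP-1 pair, differed by 0.15 and -0.07 and were not called at 24 h.

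Of 20 tested cytokine genes, 17 were called higher and 1 lower, with a median of 1.94 (1.29 under the spike-in scaling, 1.24 after normexp background correction) against -0.11 for all genes; with the 6 members below background kept in, the median was 1.16. Il23a and Tnfsf10, the death ligand TRAIL, are among the 17 although no HS or HS+LPS array was well above background for them, so no fold is given. Tnf, an early cytokine of the LPS response, was well above background already without LPS: its level was 4.27, 4.34 and 4.35 in HS and 7.26, 7.25 and 7.31 in HS+LPS, a difference of 2.95 (SE 0.043, adjusted p = 3.99e-12). Il6, which drives the acute phase, was not measurable in HS (-6.56, -6.28 and -5.94) and stood at -0.92, -0.48 and -0.83 in HS+LPS, at least 15.7-fold higher. Il1b, the interleukin-1 beta precursor, was at least 13.5-fold higher (-0.95, -0.92 and -1.0 in HS+LPS), Csf1, the macrophage growth factor, at least 8.04-fold and Csf2, GM-CSF, at least 4.62-fold. Osm, oncostatin M, rose by 2.70, Il18, an inflammasome substrate, by 2.06, the stress cytokine Gdf15 by 2.16, Ebi3 by 2.05 and Il15 by 1.84. Il1a was well above background on 1 HS array and on no HS+LPS array (-6.67, -6.40 and -2.11 and -4.94, -4.52 and -5.60), with a fitted difference of 0.037 (SE 0.96, adjusted p = 0.974) that became 1.51 and was called without HS replicate 3. Tnfsf9 was the member called lower (-0.51). Il10, Il12a, Il12b, Lif, Il19 and Il7 passed the background filter in no group and were not tested.

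Of 15 tested chemokines, 10 were called higher and 2 lower (median 1.82); the other 10 of the 25 listed did not pass the background filter, and with them the median was 0.26. Beside Cxcl2 and Ccl2, the T cell and monocyte chemoattractant Ccl5 rose by 4.77, from 2.61, 2.53 and 2.71 to 7.18, 7.54 and 7.44. Ccl4 and Ccl3, the macrophage inflammatory proteins, rose by 4.29 and 3.25, and Cxcl10, the interferon-induced ligand of CXCR3, by 3.67, from 0.55, 0.55 and 0.65 to 4.28, 4.31 and 4.17. For all of these the HS+LPS arrays lay above the HS arrays without overlap, which in either direction held for 74.9% of all genes. Ccl6 rose by 1.90 and Ccl9 by 1.61. Ccl7 and Ccl12, of the same monocyte chemoattractant family as Ccl2, were well above background on no array of either group, so no fold is given for them although Ccl7 is among the 10 called. Cxcl14 fell by 1.74 and Cxcl16, the membrane-bound ligand of CXCR6, fell by 0.41. Cxcl1, Cxcl3, Cxcl9, Ccl17, Ccl20 and Ccl22 did not pass the background filter.

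All 42 tested interferon-stimulated antiviral genes were called higher by limma, 39 of them at least 2-fold. The median difference was 3.90, or 3.25 under the spike-in scaling, which called 39 higher and 2 lower. Isg15, the ubiquitin-like modifier, had levels of 2.19, 2.26 and 2.29 in HS and 8.34, 8.35 and 8.30 in HS+LPS, a difference of 6.08 (SE 0.074, adjusted p = 1.35e-12). Rsad2, viperin, rose by 6.30, Mx2 by 6.20, Cmpk2 by 5.67, Isg20 by 5.67, Usp18, which removes ISG15 and restrains the interferon receptor, by 5.32 and Ifit1 by 4.72. Mx1, the influenza-resistance GTPase, was well above background on only 1 HS array and stood at 2.01, 2.05 and 1.82 in HS+LPS. At the low end were Ms4a4c (0.14), Slfn5 (0.32) and Ly6e (0.54), which were below 0 under the spike-in scaling, and Ms4a4c was not called with any of HS replicates 1, 2 and 3 left out (0.14, 0.14 and 0.15) nor without HS+LPS replicate 2 or 3 (0.13 each). The Oas, Slfn, Ifit and Mx genes belong to families with near copies, whose probes may share signal. Of 14 tested interferon-inducible GTPases, which attack the vacuoles of intracellular pathogens, 12 were called higher and the other 2, Iigp1 and Gbp10, were not called, with a median of 3.32: Gbp3 rose by 5.01, Igtp by 3.92, Tgtp2 by 3.88, Irgm2 by 3.66 and Irgm1 by 3.38, while Iigp1 differed by 0.11 (SE 0.13, adjusted p = 0.461) by the probe used and was called at 1.31 with averaged probes, at 0.41 after cyclic loess and at 0.19 after normexp background correction.

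Of 21 tested factors that carry the interferon signal, 11 were called higher and 8 lower (median 0.34, -0.31 under the spike-in scaling and 0.13 over members above background on all 12 arrays). Stat2 rose by 2.48, from 1.94, 1.85 and 1.81 to 4.41, 4.26 and 4.36, and Irf9 by 1.74. The receptor chains Ifnar2 and Ifngr1 fell by 0.76 and 0.73. Ifnar1 fell by 0.82 by the probe used, but its probes were called in both directions and their mean differed by -0.0082 and was not called. Irf4 fell by 0.88 and Irf3, the constitutive factor of the TRIF arm, fell by 0.28.

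Effector genes were led by a few very large rises. Of 23 tested nitric oxide and antimicrobial genes, 14 were called higher and 5 lower (median 0.62, -0.03 under the spike-in scaling). After Nos2 came Acod1, which makes itaconate (5.60, from 1.47, 1.55 and 1.38 to 7.02, 7.13 and 7.04), and the siderophore-binding Lcn2 (5.45, from -1.78, -1.73 and -1.90 to 3.69, 3.82 and 3.43). Gch1, the first enzyme of the nitric oxide synthase cofactor tetrahydrobiopterin, rose by 2.36, the phagosomal metal transporter Slc11a1 by 1.55, Slpi by 1.41 and Arg2 by 0.92. Cybb, the catalytic subunit of the phagocyte NADPH oxidase, fell by 0.47. Of 16 tested genes of prostaglandin and leukotriene synthesis 6 were called higher and 8 lower. Ptgs2 rose by 7.35 as given above, while Ptgs1, the constitutive cyclooxygenase, fell by 0.58, the leukotriene enzyme Alox5 fell by 1.10 (SE 0.046) and the prostaglandin D synthase Hpgds fell by 2.02, from 0.25, 0.34 and 0.42 to -1.43, -1.90 and -1.71.

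Antigen presentation rose on the class I side. Of 21 tested class I genes, 18 were called higher, 12 of them at least 2-fold, and 2 lower (median 1.13, 0.47 under the spike-in scaling). The peptide transporter Tap1 rose by 2.62, from -0.42, -0.27 and -0.31 to 2.26, 2.37 and 2.24, Tap2 by 1.51, its partner Tapbp by 1.81, the immunoproteasome subunits Psmb9 and Psmb8 by 1.43 and 1.20 and the light chain B2m by 1.16. The heavy chains H2-D1 (1.30) and H2-K1 (1.13) rose as well, with the reservation that their probes may share signal with related H2 genes. Of 11 tested class II and co-stimulation genes, 6 were called higher and 2 lower (median 0.16, -0.49 under the spike-in scaling). The checkpoint ligand Cd274 rose by 2.83, the invariant chain Cd74 by 1.48 and Cd40 by 1.20, and Cd83 fell by 0.61.

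Macrophage surface genes and lineage factors moved both ways, 13 called higher and 11 lower of 28 tested (median 0.09, -0.57 under the spike-in scaling). Over all genes 30.5% were called higher and 41.8% lower. Beside Siglec1, the IgG receptor Fcgr4 rose by 3.06, the complement receptors C5ar1 and C3ar1 by 2.09 and 1.94, the scavenger receptor Msr1 by 1.97 and the phagocytic kinase Axl by 1.45. On the other side, Cx3cr1, the fractalkine receptor, fell by 2.31, from 6.01, 6.07 and 5.92 to 3.74, 3.70 and 3.63, Trem2, a lipid receptor of tissue macrophages, fell by 2.02, Trem1 fell by 1.98, Itgax fell by 1.02 and the myeloid factor Cebpa fell by 0.66. Csf1r and Spi1, which define the lineage, differed by 0.025 and -0.064 and were not called. Of 11 tested genes of alternative activation 3 were called higher and 5 lower, with Vegfa at 1.74 and Pparg well above background on the HS and on no HS+LPS array. Among 21 G-protein-coupled receptors and their regulators, 8 were called higher and 11 lower, 1 of these above background in neither group (median -0.47, -0.046 after normexp background correction and -0.24 after cyclic loess). The niacin and ketone receptor Hcar2 rose by 4.24, Rgs1 by 2.64 and Adora2b by 1.46, and Gpr84, a medium-chain fatty acid receptor, fell by 2.18, Gpr183 fell by 2.04 and Rgs2 fell by 1.52. S1pr1, which guides cells along sphingosine-1-phosphate, was at 0.083, 0.32 and -0.43 in HS and -5.02, -4.39 and -3.51 in HS+LPS, where 1 of 3 arrays was well above background.

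Of 11 osteoclast genes, 9 were called higher and 1 lower (median 1.04), among them the integrin Itgav (1.31), tartrate-resistant acid phosphatase, Acp5 (1.26), cathepsin K, Ctsk (1.22), and Dcstamp (1.06), needed for fusion. Of 24 matrix, protease and coagulation genes 12 passed the background filter, of which 9 were called higher and 1 lower (median 1.67, 1.08 after normexp background correction); with all 24 the median was 0.28. Urokinase, Plau, rose by 2.79, from 2.78, 2.99 and 2.77 to 5.60, 5.65 and 5.66, and the urokinase receptor, Plaur, by 2.83. Osteopontin, Spp1, rose by 3.57, the hyaluronan receptor Cd44 by 2.21, and tissue factor, F3, was at least 4.4-fold higher.

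**Figure D3:**
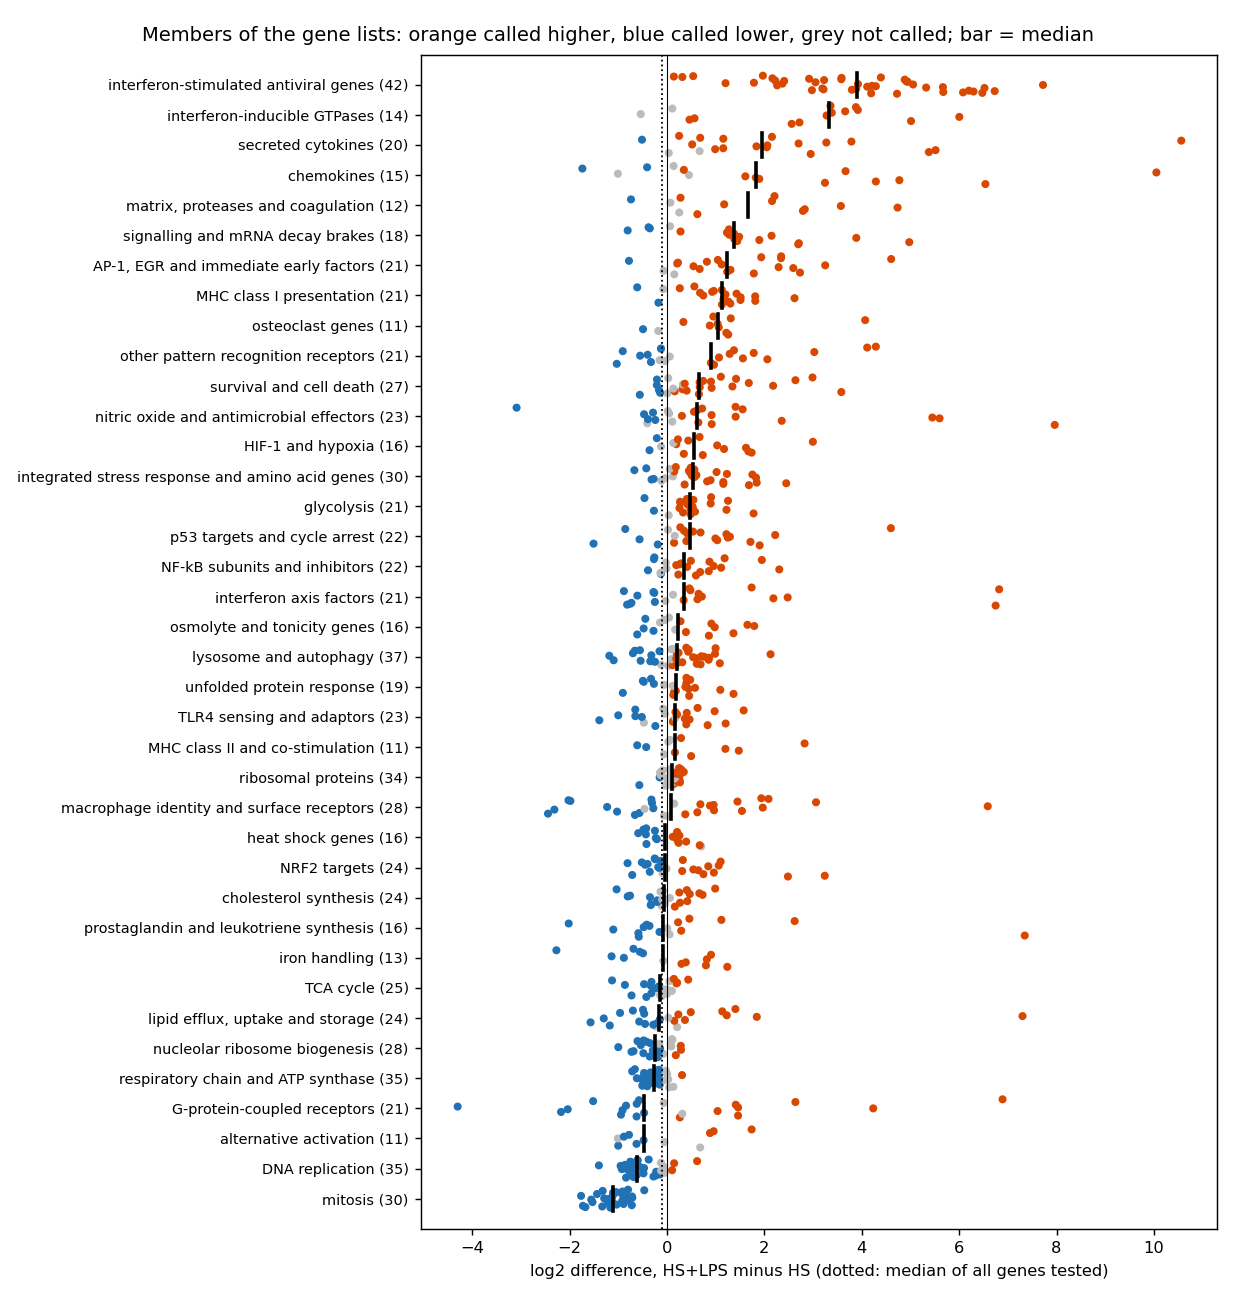
HS+LPS minus HS difference (log2) of every tested member of the 38 gene lists, 1 line a list, ordered by the median (black bar), with the number of members tested in brackets; the dotted line is the median of all genes tested, -0.11. Antiviral genes have the highest median, 3.90, and mitosis genes the lowest, -1.12.

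Of 16 tested osmolyte and tonicity genes, 8 were called higher and 4 lower between groups with the same salt (median 0.22, -0.43 under the spike-in scaling). The shares over all genes were 30.5% and 41.8%. The effect of the added salt itself on the listed genes was not tested here. Akr1b3, aldose reductase, which makes sorbitol, went from 7.43, 7.25 and 7.89 in HS to 8.89, 8.78 and 9.01 in HS+LPS, a difference of 1.37 (SE 0.14, adjusted p = 6.74e-06). Hspa4l, a chaperone induced by osmotic stress, rose by 1.79, from 1.60, 1.57 and 1.99 to 3.53, 3.33 and 3.68, and Slc6a12, the betaine transporter, by 0.86, from 6.58, 6.44 and 6.89 to 7.54, 7.37 and 7.58, which was 0.20 and not called under the spike-in scaling. Sgk1 rose by 1.65. Slc5a3, the myo-inositol transporter, fell by 0.61. For Akr1b3, Hspa4l and Slc6a12 the lowest HS+LPS array was above the highest HS array. Over all genes 74.9% had no overlap in either direction.

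Of 21 tested glycolysis genes 18 were called higher and 2 lower (median 0.48; under the spike-in scaling 5 higher, 9 lower and a median of -0.17). Hk3, a myeloid hexokinase, rose by 1.78, from 3.46, 3.61 and 3.53 to 5.33, 5.36 and 5.24, Eno2 by 1.25, Pfkp by 1.22, the lactate exporter Slc16a3 by 0.91 and Pgk1 by 0.90. Of 16 genes of the HIF-1 and hypoxia list 12 were called higher and 2 lower (median 0.55; 0.35 with members below background kept in and -0.10 under the spike-in scaling). Adm, adrenomedullin, rose by 3.0, Vegfa by 1.74, the mitophagy receptor Bnip3 by 1.67, from 5.0, 5.44 and 4.78 to 6.79, 6.58 and 6.86, Ero1a by 1.62, the prolyl hydroxylase Egln3 by 1.17, Ddit4 by 1.03 and Hif1a itself by 0.74, although its probes were called in both directions. Under the spike-in scaling Hif1a was at 0.079 and not called. Of 35 respiratory chain and ATP synthase genes 1 was called higher and 26 lower (median -0.26), and of 25 citric acid cycle genes 4 higher and 11 lower (median -0.14), the lowest being Dlat of the pyruvate dehydrogenase complex (-1.13). These medians lie close to that of all genes, -0.11, of which 30.5% were called higher and 41.8% lower. The citric acid cycle count is near that share called lower, and the respiratory chain count is above it.

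Of 24 cholesterol synthesis genes 9 were called higher and 8 lower, against 30.5% and 41.8% of all genes (median -0.06, 0.030 after cyclic loess). Stard4 (-1.03) was the one at least 2-fold lower, although its probes were called in both directions. Of 24 genes of lipid handling 9 were called higher and 12 lower. On the higher side were the lipid droplet coat Plin2 (1.84), Hilpda (1.41) and the fatty acid carrier Fabp5 (1.23), and fatty acid synthase, Fasn (-1.57, SE 0.073), the apolipoprotein Apoe (-1.30), Mylip (-1.17) and Soat1 (-0.96) on the lower. Of 13 tested iron genes, 6 were called higher and 6 lower, with the exporter Slc40a1, ferroportin, at 1.24 and transferrin, Trf, at -2.27.

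All 30 tested mitosis genes were called lower, 19 of them at least 2-fold, with a median of -1.12; in the background 41.8% of genes were called lower and 6.87% lower by at least 2-fold. The proliferation marker Mki67 went from 6.54, 6.72 and 6.64 to 5.21, 5.06 and 4.98, a difference of -1.55 (SE 0.075, adjusted p = 2.75e-08). The mitotic cyclins Ccna2 and Ccnb1 fell by 1.73 and 1.68, their kinase Cdk1 fell by 1.16, the motor Kif11 fell by 1.53, Foxm1, which switches on G2 genes, fell by 1.44 and Plk1 fell by 1.21. No array of HS+LPS reached the lowest HS array for any of these, and 74.9% of all genes had no overlap in either direction. Of 35 DNA replication genes 28 were called lower and 3 higher (median -0.62): Tyms fell by 0.95, Pola1 fell by 0.93, Tk1 fell by 0.86 and the helicase subunit Mcm2 fell by 0.84, while Ccne1, cyclin E1, rose by 0.62. Under the spike-in scaling the medians of the mitosis and replication lists were -1.77 and -1.27.

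Of 22 p53 targets and arrest genes 16 were called higher and 4 lower (median 0.47, -0.18 under the spike-in scaling). The kinase inhibitor Cdkn1a, p21, rose by 1.90, from 4.46, 4.52 and 4.49 to 6.44, 6.34 and 6.40, the p53 ligase Mdm2 by 1.71, Btg1 by 1.29, Trp53inp1 by 1.25 and Ccng2 by 1.03, and Plk2 was at least 18.2-fold higher. The kinase inhibitor Cdkn2c fell by 1.51. Of 27 survival and death genes 18 were called higher and 5 lower (median 0.66, -0.0007 under the spike-in scaling): the pro-apoptotic Bcl2l11, Bim, rose by 3.58, the executioner of necroptosis Mlkl by 2.99, the LPS-sensing caspase Casp4 by 2.64, Fas by 2.18 and, on the protective side, Cflar by 1.34.

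Of 30 genes of the integrated stress response and amino acid supply 22 were called higher and 4 lower (median 0.54, -0.12 under the spike-in scaling), with Ddit3, CHOP, at 2.45, Trib3 at 1.84, the cystine transporter Slc7a11 at 1.83, Ppp1r15a, which ends the response, at 1.75 and Atf3 at 1.68. Of 19 genes of the unfolded protein response 12 were called higher and 5 lower (median 0.18, -0.47 under the spike-in scaling), with Dnajb9 at 1.37 and Pdia4 at 1.10. NRF2 targets were balanced at 11 higher and 11 lower of 24, but held Hmox1, heme oxygenase, which rose by 3.24, from 4.21, 4.32 and 4.35 to 7.50, 7.53 and 7.57, and Nqo1, at least 4.74-fold higher. Heat shock genes were 7 higher and 8 lower of 16. Of 37 lysosome and autophagy genes 22 were called higher and 10 lower (median 0.21, -0.45 under the spike-in scaling): the autophagy receptor Sqstm1 rose by 2.13, cathepsin L, Ctsl, by 1.09 and Wipi1 by 1.0, while Tfeb, the regulator of the set, fell by 1.18. Of 28 genes of nucleolar ribosome biogenesis 3 were called higher and 19 lower (median -0.24), with Pes1 the lowest at -1.0, and of 34 ribosomal protein genes 12 higher and 2 lower (median 0.10, but -0.072 after quantile normalization and -0.56 under the spike-in scaling).

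Set beside the same stimulus without added salt, the LPS effect had the same direction at most genes and another size at many. NS+LPS against NS, which shares no array with the comparison above, called 8827 of the 13845 genes (63.8%), 28.6% of all genes higher and 35.1% lower, and the 2 sets of effects correlated at 0.84 across genes, a description since genes are not independent replicates. Of the 926 genes (6.69%) called and at least 2-fold higher with LPS in normal salt, 886 (95.7%) were also called higher in high salt, 767 by at least 2-fold, 3 were called lower and 37 not called, with medians of 1.73 and 1.75. Of the 736 (5.32%) at least 2-fold lower in normal salt, 650 (88.3%) were called lower in high salt, and 412 (56%) were at least 2-fold lower there, with medians of -1.35 and -1.08. Sets chosen on the effect in high salt leaned the other way: the 1133 genes at least 2-fold higher there had medians of 1.63 in high and 1.38 in normal salt, and the 951 at least 2-fold lower -1.30 and -0.89. The choice of a set by its effect in 1 medium itself favours a larger effect there, so these medians are descriptions. The difference between the LPS effects was tested itself, as (HS+LPS minus HS) minus (NS+LPS minus NS): 5013 genes (36.2%) were called, 2404 with a higher and 2609 with a lower effect in high salt, 618 of them (4.46%) by at least 2-fold, 295 higher (2.13%) and 323 lower (2.33%). The split moved to 3275 higher and 2078 lower after cyclic loess, to 3054 and 2199 after quantile normalization and to 3056 and 2197 with the deposited value table, and under the spike-in scaling, which shifts every such difference by -0.62, to 249 and 10731. For 224 genes LPS was called higher in high salt and lower in normal salt, and for 184 the reverse; in 3 of these, Atp9a, Serinc5 and Trp53inp1, both effects were at least 2-fold; with averaged probes Atp9a had an effect of 0.51 in high salt that was not called.

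**Figure D4:**
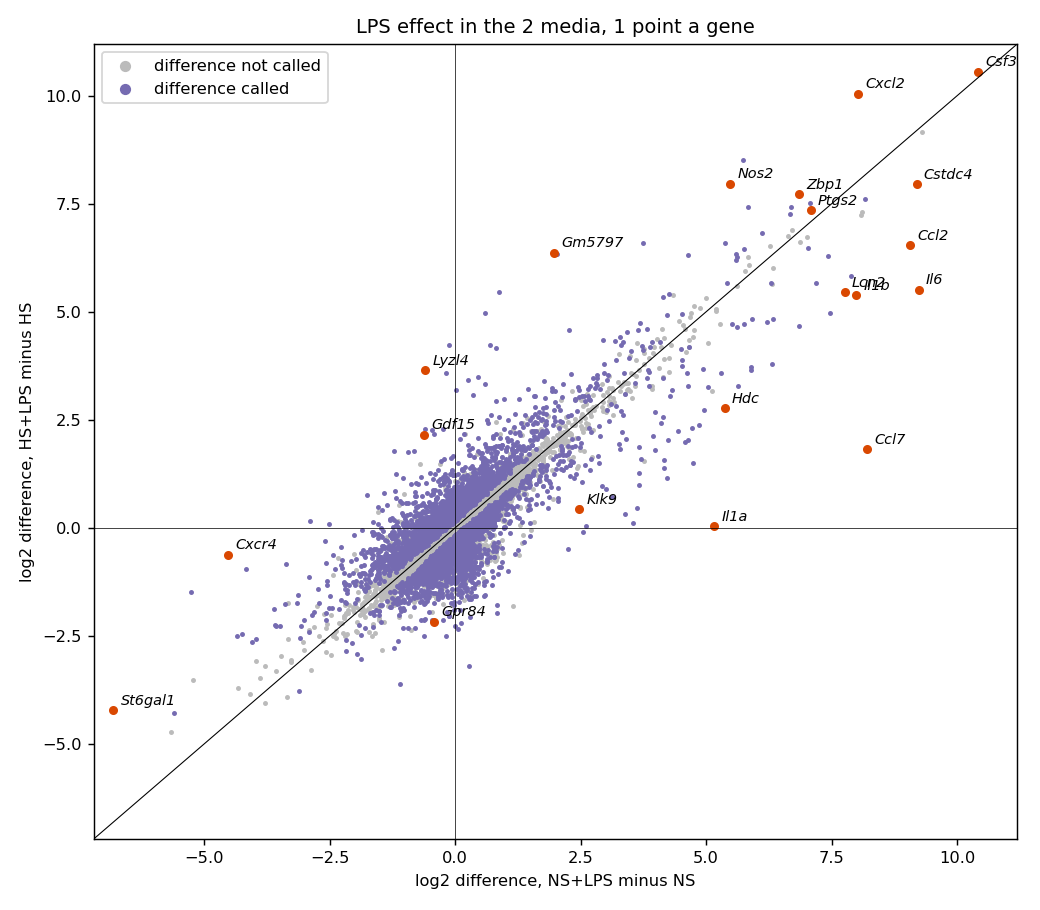
LPS effect (log2) in high salt, vertical, against that in normal salt, horizontal, for each of 13845 genes; purple marks genes whose difference between the effects was called, the diagonal marks equal effects and orange points are named. Nos2, Cxcl2, Lyzl4 and Gdf15 lie above the diagonal and Il6, Il1b, Ccl2, Ccl7 and Lcn2 below it.

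Several inflammatory genes had a lower LPS effect in high salt. Il6, Il1b and Csf2 were not well above background without LPS in either medium, so their fitted effects rest on a level that was not measured. With LPS, Il6 stood at 2.81, 2.86 and 2.63 in NS+LPS and at -0.92, -0.48 and -0.83 in HS+LPS, and the test of the difference between the effects gave -3.72 (SE 0.25, adjusted p = 8.1e-06). Il1b stood at 1.29, 1.55 and 1.33 against -0.95, -0.92 and -1.0 (-2.62, SE 0.12) and Csf2 at -0.13, 0.12 and -0.14 against -2.60, -2.37 and -2.55 (-2.52, SE 0.13). For these 3 genes the 3 HS+LPS arrays lay below the 3 NS+LPS arrays. Ccl2 was measurable in every group: LPS raised it by 9.06 without added salt, from -0.94, -0.80 and -0.98 to 8.14, 8.22 and 8.08, and by 6.54 with it, and the difference between the effects was -2.52 (SE 0.20, adjusted p = 2.05e-05). Ccl7, at 1.60, 1.83 and 1.40 in NS+LPS, and Ccl12, at -2.55, -2.50 and -2.55, were well above background there and on no HS+LPS array. The same was true of Il1a (-1.81, -1.38 and -1.76 in NS+LPS), of Il23a and of Tnfsf10. Lcn2 (-2.32), Cxcl10 (-1.28) and Ccl5 (-1.45) also had a smaller effect in high salt.

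Others had a higher effect in high salt. Nos2 rose by 5.48 in normal salt, to 2.37, 2.31 and 2.74 in NS+LPS, and by 7.96 in high salt, a difference of 2.48 (SE 0.19, adjusted p = 1.55e-05); its level without LPS was -2.88, -3.03 and -3.12 in NS and -2.74, -3.01 and -2.78 in HS. Cxcl2 reached 5.12, 5.17 and 5.04 in NS+LPS and 5.30, 5.11 and 5.37 in HS+LPS, and the difference between the effects was 2.02 (SE 0.33, adjusted p = 0.00128); without LPS it stood at -2.94, -3.02 and -2.80 in NS and was not well above background in HS, so that difference depends on a level that was not measured, and it was 0.71 after normexp background correction. Gdf15 rose by 2.16 in high salt and moved by -0.62 in normal salt, a difference of 2.78 (SE 0.12). Without LPS its mean level was 1.01 in NS and lower, at -0.92, in HS. With LPS it was 0.39 in NS+LPS and 1.23 in HS+LPS. Hmox1 had an effect 1.31 larger in high salt, Bnip3 1.72, Acp5 1.77 and Slc40a1 1.18. Hspa4l and Akr1b3, which LPS moved by 0.28 and 0.14 in normal salt, had differences of 1.51 (SE 0.16) and 1.22 (SE 0.19). Tnf, with a difference of 0.26, Isg15 (0.24, adjusted p = 0.104) and Ptgs2 (0.26, adjusted p = 0.0979) differed less between the media. Under the spike-in scaling, the differences of Nos2, Gdf15, Hmox1, Bnip3, Acp5, Slc40a1, Hspa4l and Akr1b3 remained above 0, and that of Tnf did not.

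By size of the difference among genes well above background on all 12 arrays, the largest on the higher side was Lyzl4, of the lysozyme-like family, with an LPS effect of 3.65 in high and -0.59 in normal salt, a difference of 4.24 (SE 0.17, adjusted p = 1.18e-06). Its levels were -2.37, -2.50 and -2.81 in NS, -3.14, -3.15 and -3.17 in NS+LPS, -3.34, -3.25 and -3.14 in HS and 0.47, 0.18 and 0.56 in HS+LPS. After it came 1600014C23Rik (3.16), 1600022D10Rik (3.16), the phospholipid flippase Atp9a (2.99), the matrix protein tenascin XB, Tnxb (2.88), Gdf15, Myom1 (2.71), the transcriptional repressor Gfi1 (2.69), the ephrin receptor Epha2 (2.60) and the guidance receptor Robo3 (2.52). On the lower side Hdc, histidine decarboxylase, which makes histamine, led with -2.61 (SE 0.10, adjusted p = 1.14e-06): LPS moved it by 5.37 in normal and by 2.77 in high salt. Ccl2 and Lcn2 came next, followed by uridine phosphorylase, Upp1 (-2.06), Klk9 (-2.04), Id3, an inhibitor of basic helix-loop-helix factors (-1.94), Elapor1 (-1.78), the beta-glucan receptor Clec7a (-1.78), Sh3bgr (-1.76) and Gpr84 (-1.75). The effect of LPS on Clec7a was 0.87 in normal salt and -0.91 in high salt, where its arrays went from -2.68, -2.45 and -3.06 to -3.63, -3.44 and -3.85; after normexp background correction the effect in high salt was -0.18 and not called. That correction, which bears most on dim probes, brought the differences of Clec7a, Klk9, Sh3bgr and Elapor1 to -0.91, -1.14, -0.95 and -0.81, all still called. Probes of Elapor1 were called in both directions: with the mean of its probes its difference was -0.18 and not called, and its effect in high salt turned from -0.60 to 0.63. With the mean of the Atp9a probes its difference was 0.53 and not called. The falls of the chemokine receptor Cxcr4 and of St6gal1 were smaller in high salt: Cxcr4, not well above background in NS+LPS, moved by -4.52 in normal and -0.62 in high salt (3.90, SE 0.31, 1.42 after normexp background correction), and St6gal1, at -5.93, -5.65 and -5.09 and not well above background in NS+LPS, by -6.82 and -4.22 (2.60, but 1.24 after normexp background correction and 1.08 with averaged probes). The effect on Cxcr4 in high salt was not called after normexp background correction (-0.20), quantile normalization (-0.48), cyclic loess (-0.24) or with the deposited table (-0.48), nor without HS replicate 3 (-0.49) or HS+LPS replicate 1 (-0.61) or 2 (-0.36).

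Mitosis genes had a lower LPS effect in high salt in 28 of 30 members tested, with a median effect of -1.12 against -0.58 in normal salt. DNA replication genes had a lower one in 28 of 35, with medians of -0.62 and -0.16. Of these 35 genes, 18 were called lower and 7 higher with LPS in normal salt. Cdk1 fell by 1.16 in high salt against an effect of -0.28 in normal salt (-0.88, SE 0.21; -0.31 and not called after normexp background correction), and Mki67 fell by 1.55 against -0.65. Glycolysis genes had a higher effect in high salt in 16 of 21 members, with medians of 0.48 and 0.15, hypoxia genes in 13 of 16, with 0.55 and -0.11, p53 targets in 15 of 22 and lysosome genes in 21 of 37. In the background 17.4% of genes were called with a higher and 18.8% with a lower effect. The direction of the mitosis and replication lists held under each scaling tried, and the median differences of the glycolysis, hypoxia, p53 and lysosome lists, 0.39, 0.56, 0.50 and 0.27, turned to -0.23, -0.06, -0.12 and -0.35 under the spike-in scaling. Antiviral genes had a higher effect in 14 and a lower one in 7 of 42 (median difference 0.10), which became 11 and 12 after normexp background correction (median 0.034) and 0 and 29 under the spike-in scaling (median -0.52). The interferon-inducible GTPases had a lower one in 6 of 14 (3 after cyclic loess), among them Gbp2 (-1.58, not well above background in HS), Gbp6 (-1.17; -0.50 after normexp background correction, and -0.78 and not called after cyclic loess) and Iigp1 (-1.37; -0.80 after normexp background correction).

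**Figure D5:**
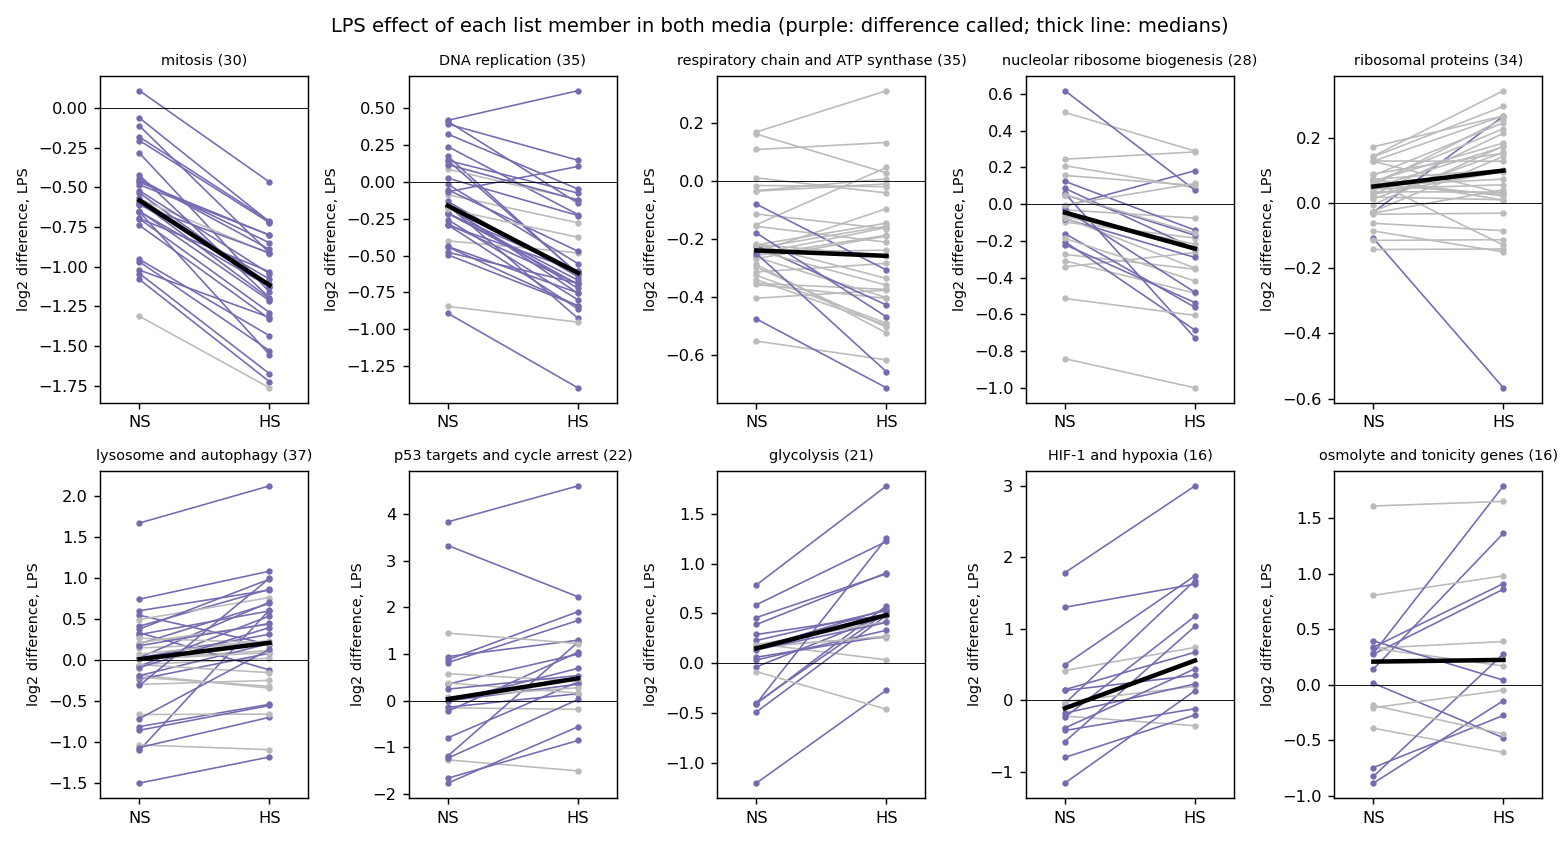
LPS effect (log2, vertical) of each tested member of 10 gene lists in normal (NS) and high salt (HS), 1 line a gene, purple where the difference was called; the thick line joins the medians, and each panel has its own scale. Mitosis and DNA replication genes slope down to -1.12 and -0.62 in high salt, and glycolysis and hypoxia genes slope up to 0.48 and 0.55.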

How the data were processed

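Total RNA of RAW264.7 cells was hybridised to 12 one-colour arrays, and the deposited spot intensity is the background-subtracted processed signal of Agilent Feature Extraction 10.7.3.1, per the file headers. The authors' deposited value table, an intensity whose scale and centring are not stated (column medians 28.8 to 28.81), was used as an alternative. No spot of 59305 non-control spots was saturated (0), and 43.7% to 52.8% of probes were well above background on the 6 arrays of the comparison; the number of arrays limits the precision.

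From these values log2 of the signal minus the log2 75th percentile of each array was computed. Spots of a probe were averaged after outlier flags were left out, which removed 10 of 55671 probes, and 33260 probes had a gene name, 27501 of them by RefSeq accession. A gene needed a probe that the scanner software called well above background on every array of 1 group or more, and was represented by the brightest such probe; 13845 genes were tested, 3997 of them with several probes, of which 520 had probes called in both directions. All 12 arrays were fitted in limma 3.58.1 (R 4.3.3) with 1 mean a group, with eBayes and Benjamini-Hochberg adjustment over all genes at 0.05, for HS+LPS against HS, NS+LPS against NS and the difference between these effects. On simulated data with 100 genes of 13845 changed by each size, recovery was measured for changes of 0.5 and 1 (log2). The HS+LPS against HS test recovered 76% and 91% of these changes, and the test of the difference between the effects 62% and 76%. Recovery with as many genes changed as the 10006 called in the data was not tested.

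Named genes are the 12 largest rises and falls among genes measured on all 6 arrays without overlap, the 10 largest at-least folds each way, members of the gene lists, chiefly the up to 6 with the largest called differences, and the 10 largest differences between the effects each way; a few genes that these rules name are not reported here. The members and lists were chosen with earlier results of these data known, and a list is described by its counts and median with no test. The study groups come from the sample titles. Alternatives tried were normexp background correction, quantile and cyclic loess normalization, the deposited table, other filters, averaging the probes of a gene, a trended variance, the replicate number as a block, only the groups compared, each array left out, and spike-in scaling, the last chosen after seeing the data. Of 941 listed genes 934 were on the array and 838 were tested. The aligner or genome build of the array design beyond the mm9 probe coordinates is not given in the sources used here.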

Additional observations from a re-analysis of the deposited data

Results flagged for a closer look

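The LPS effect differed between the media by the test of the difference itself in 5013 of 13845 genes, the basis of the differences given for single genes here; with 3 arrays a group, no search for single outlying arrays was made. Higher in high salt by that test, among genes measured on all 12 arrays, were Lyzl4 (4.24), 1600014C23Rik (3.16), 1600022D10Rik (3.16), Atp9a (2.99), Tnxb (2.88), Gdf15 (2.78), Myom1 (2.71), Gfi1 (2.69), Epha2 (2.60) and Robo3 (2.52), all as log2 differences between the effects. Lower in high salt were Hdc (-2.61), Ccl2 (-2.52), Lcn2 (-2.32), Upp1 (-2.06), Klk9 (-2.04), Id3 (-1.94), Elapor1 (-1.78), Clec7a (-1.78), Sh3bgr (-1.76) and Gpr84 (-1.75). HS+LPS lay on a slide and scan day of its own, so these differences and that slide cannot be told apart. With averaged probes the differences of Atp9a (0.53) and Elapor1 (-0.18) were not called.

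Of the probes without a gene name, 8166 passed the same background filter, and 4673 (57.2%) were called between HS+LPS and HS, 1266 higher and 3407 lower; the background among named genes was 72.3%.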

How the results depend on the processing

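Slide and scan day coincide with HS+LPS, which bears on every value that uses those arrays, and no slide held both HS and HS+LPS. The number of genes called for LPS in high salt, 10006, was 9506 to 9625 with 1 array left out, that in normal salt, 8827, was 8171 to 8541, and that of the difference between the effects, 5013, was 4164 to 4788; without an array the group's other 2 arrays share the spread of all groups. Other planned settings moved these counts by less than 1.5 times, with 9153 to 10156 genes called for LPS in high salt. The filters also changed the number of genes tested, which was 12161 for the 9153. Averaging probes turned 324 of the 10006 calls, 167 of them called the other way. Normexp background correction turned 371, with 22 called the other way. Within the slide that NS shares with NS+LPS replicates 1 and 2, 8346 genes were called for LPS in normal salt.

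With the replicate number as a block the counts were 9834, 8635 and 4606. The numbers gave no sign of pairing, since same-numbered HS and HS+LPS arrays had deviations from their group means that correlated at -0.074, 0.065 and -0.0042, and NS and NS+LPS arrays at 0.013, 0.042 and -0.071; of the genes named, the block changed the call of Ms4a4c (0.14, no longer called).

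Spike-in scaling, chosen after seeing the data, called 10980 genes for the difference between the effects. It turned the LPS effect in high salt of Ccne1 (-0.037), Gbp6 (-0.092), Itgam (-0.033), Ly6e (-0.12), Ms4a4c (-0.52) and Slfn5 (-0.34), and the medians of 15 of 38 lists. Under it 7 named genes were no longer called for LPS in high salt. These were Cd14 (0.18), Hif1a (0.079), Il23a (0.33), Lyz2 (0.26), Robo3 (0.11), Slc6a12 (0.20) and Tbk1 (0.32). Averaging probes turned Elapor1 (0.63) and Hif1a (-0.076), and normexp background correction turned Pparg (0.073); Atp9a (0.51) was not called with averaged probes, nor Elapor1 after normexp correction (-0.095), quantile normalization (-0.39), cyclic loess (-0.25) or with the deposited table (-0.38), nor Ms4a4c after normexp correction (0.074). Newly called were Csf1r after quantile normalization and with the deposited table (-0.14 each), Fos (0.29) and Klk9 (0.77) after cyclic loess and Ccl12 (0.61) and Klk9 (0.44) after normexp correction. Planned settings turned the medians of 5 lists, those of prostaglandin synthesis, alternative activation, cholesterol synthesis, iron handling and ribosomal proteins, and leaving out 1 array turned that of 0 lists. Single genes were followed under the planned settings other than the filters, the trended variance and only the groups compared. Over 3252 values of 271 named genes, 3202 kept their side of the threshold and, where called, their direction. Of the rest, 29 fell below the threshold, 18 passed it and 3 turned. A turn was counted only for genes called in the fit given above. With 1 array left out, besides the genes named above, Robo3 was not called without HS replicate 1, 2 or 3 or HS+LPS replicate 1 or 3 (0.64 to 0.79), Gbp6 without HS replicate 2 (0.47) or HS+LPS replicate 1 (0.50), and Il23a without HS replicate 2 (0.71). Newly called were Fos without HS replicate 2 (0.24), Gbp10 without HS replicate 2 (-0.89), Klk9 without HS replicate 3 (0.80) and Spi1 without HS replicate 1 (-0.11). Genes not well above background in 1 group have only an approximate limit of the fold, which holds for 118 genes called higher and 248 called lower.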
